A study of Mus musculus with 9 samples.

Results

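The fibroblast growth factors and their receptors measured here are 10 mouse genes: the secreted ligands Fgf1, Fgf2, Fgf7, Fgf9, Fgf10 and Fgf16, the intracellular factors Fgf12 and Fgf13, and the receptors Fgfr1 and Fgfr2. They were taken by gene symbol from the arrays, with every probe of each gene, and are 10 of 19053 genes with a probe. They have 22 probes. A probe was taken as detected where its detection p was under 0.05, and a gene was tested where a probe was detected on all 3 arrays of at least 1 group. By that filter 7 of the 10 genes were tested, and Fgf2, Fgf10 and Fgfr1 were not.

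Secreted fibroblast growth factors (FGFs) are signalling proteins that bind receptor tyrosine kinases together with heparan sulphate, a sugar chain of the cell surface, and switch on the ERK kinase cascade. In the heart, ligands of this family act on cardiomyocyte growth, on the epicardium and vessels and on the response to injury. Fgf12 and Fgf13 belong to a separate branch whose members stay inside the cell and bind the cytoplasmic tails of voltage-gated sodium channels.

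Total RNA of 9 samples was hybridised to Illumina mouse bead arrays. The 3 YFP-positive samples are cells labelled as cardiomyocytes derived from c-kit-positive cells, sorted by the YFP reporter from the left ventricular apex of mice recombined with a lentivirus carrying c-kit/cre, 28 days after they received isoproterenol. The 3 adult samples are cardiomyocytes labelled as normal, and the 3 eCSC samples are c-kit-positive, CD45-negative endogenous cardiac stem cells (eCSCs) harvested at passage 4. All mice carried the allele Gt(ROSA)26Sortm1(EYFP)Cos, a YFP reporter at Rosa26 that Cre recombinase switches on, from the B6.129X1 line on a C57BL/6J background. Isoproterenol, a beta-adrenergic agonist that injures the myocardium, was given as 200 mg per kg under the skin. The labels' treatment text names it for every sample, while the design text names it for the YFP-positive group. The sample titles call the YFP-positive cells in vitro, against the sorting from the heart in the design text, and neither point was settled. The labels give no ages and do not say whether replicates came from separate animals or cultures, so that each p-value reflects the spread of these samples alone, which may be technical.

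Each array detected 15326 to 19048 of 45281 probes, and the median raw signal lay between 93.6 and 117.9. The summed normalized signals of 14 cardiomyocyte markers, less the offset added before log2, were 189000 to 212000 in YFP-positive arrays, 222000 to 238000 in adult arrays and 312 to 424 in eCSC arrays, where 11 of the 14 were not detected. Kit, which encodes the receptor c-kit, was not detected by any of its 3 probes on eCSC or adult arrays, against the eCSC label, and was detected by 2 of them on YFP-positive arrays. YFP-positive arrays also carried the signals of other cell types, with summed endothelial markers of 20200 to 20700, against 6780 to 9480 in adult arrays, and summed fibroblast and matrix markers of 9890 to 13800, against 2230 to 3360 in adult arrays. In such bulk RNA, fewer cells of a type and less RNA per cell cannot be told apart. The part that other cells play in any difference given for YFP-positive samples was not tested, also where marker values are given beside it.

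Promoter sequence was available from RefSeq (mouse build GRCm38.p6) for 7 of the 10 genes, and is shown for the 3 tested genes with exactly 1 entry, since each of these was high in a different group. The 250 bases before the start of transcription are Fgf7 at chr2:126034408-126034657 on the plus strand, Fgfr2 at chr7:130266809-130267058 on the minus strand and Fgf9 at chr14:58072436-58072685 on the plus strand. Each is written 5′ to 3′ along its gene, and capitals mark matches to the E-box letters CANNTG, which read the same on both strands.
Fgf7: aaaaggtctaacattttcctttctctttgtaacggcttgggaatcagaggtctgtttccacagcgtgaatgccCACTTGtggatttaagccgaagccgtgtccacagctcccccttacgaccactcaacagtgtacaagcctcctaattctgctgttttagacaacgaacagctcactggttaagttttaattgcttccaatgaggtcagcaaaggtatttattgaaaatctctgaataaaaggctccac
Fgfr2: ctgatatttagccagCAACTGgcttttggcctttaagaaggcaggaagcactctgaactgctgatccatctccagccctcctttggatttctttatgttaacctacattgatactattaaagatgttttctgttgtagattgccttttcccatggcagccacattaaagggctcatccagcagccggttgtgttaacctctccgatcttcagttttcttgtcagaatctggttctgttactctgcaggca
Fgf9: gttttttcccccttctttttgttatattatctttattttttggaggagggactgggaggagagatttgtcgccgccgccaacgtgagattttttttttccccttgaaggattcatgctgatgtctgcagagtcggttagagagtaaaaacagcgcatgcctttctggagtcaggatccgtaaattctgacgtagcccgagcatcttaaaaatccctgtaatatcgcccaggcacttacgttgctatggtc
Fgf7 and Fgfr2 hold 1 match to CANNTG each and Fgf9 holds 0, while 66.2% of 32851 promoters of the same length hold at least 1. None of the 3 holds the TATA box letters TATAAA, found in 12.4% of all promoters on either strand, the GC box letters GGGCGG, found in 32.7%, or the AP-1 letters TGACTCA, found in 4.5%. Fgf9 has 11 CpG dinucleotides in this window, Fgf7 has 6 and Fgfr2 has 2, beside a median of 6 over all promoters. These counts describe the letters of the windows, and the arrays do not measure what binds there.

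Levels below are normalized log2 signals of the brightest detected probe of a gene, listed for replicates 1, 2 and 3, and apply within a probe, since probes differ in brightness. Differences are log2 differences from a linear model over all 9 arrays (limma), given with their standard error (SE) and a two-sided p adjusted by Benjamini-Hochberg over 10024 genes, called under 0.05. Where a group did not detect a probe on any array, a fold is given as a lower bound against the dimmest level that the arrays still detect.

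**Figure D1:**
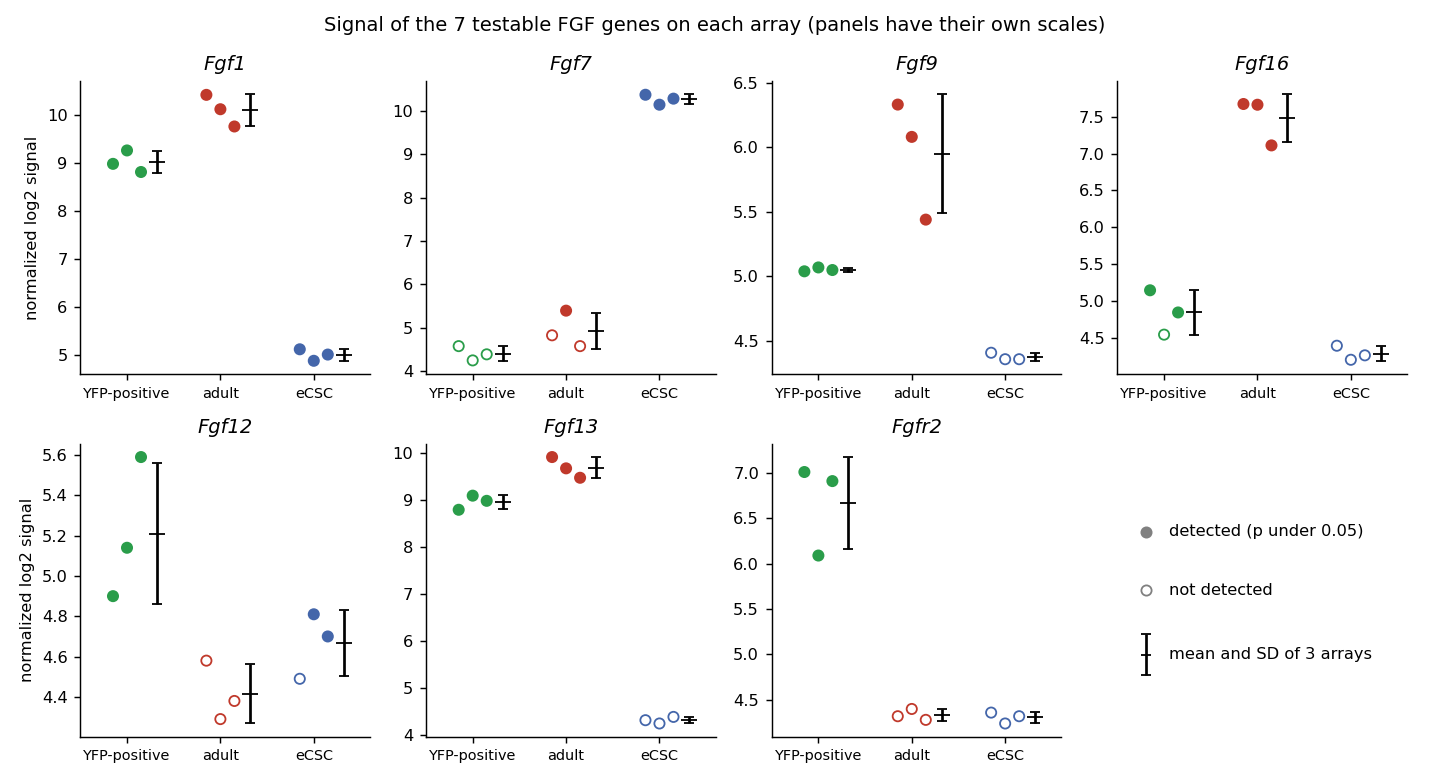
Normalized log2 signal of the 7 tested FGF genes on each array, by group from left to right YFP-positive, adult and eCSC. Filled points are arrays that detected the probe, open points are arrays that did not, and bars give the mean and SD of 3 arrays. Fgf1 and Fgf13 lie far above the eCSC arrays in both cardiomyocyte groups, Fgf7 stands high on eCSC arrays and Fgfr2 on YFP-positive arrays.

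Fgf1 was higher in both cardiomyocyte groups than in eCSCs, and was the single gene of the 10 detected on all 9 arrays. Fgf1 is a ligand without a classical signal peptide that can bind every FGF receptor. Its level was 8.98, 9.26 and 8.81 in YFP-positive samples, 10.42, 10.12 and 9.76 in adult samples and 5.11, 4.87 and 5 in eCSCs. The groups did not overlap, with adult samples highest and eCSCs close to background. Fgf1 was 16.3-fold higher in YFP-positive samples than in eCSCs (log2 difference 4.02, SE 0.195, adjusted p = 1.44e-10). It was 34.5-fold higher in adult samples than in eCSCs (5.11, SE 0.195, adjusted p = 7.49e-12). YFP-positive samples stood below adult samples by 2.12-fold (-1.08, SE 0.195, adjusted p = 0.000447). The other Fgf1 probe, not detected on any eCSC array, gave the same 3 directions: at least 2.62-fold higher in YFP-positive samples than in eCSCs, at least 5-fold higher in adult samples than in eCSCs, and a difference of -0.93 between YFP-positive and adult samples (adjusted p = 0.0066 over all probes). The Fgf2 probe, for the other ligand of the same subfamily, was detected on no array, with raw signals of 85.6 to 95.7 in YFP-positive samples, 87.9 to 97.5 in adult samples and 93.7 to 107.3 in eCSCs. These are the signals of background, so that these data give no level for Fgf2.

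Fgf7, the keratinocyte growth factor that mesenchymal cells make and that acts on the epithelial splice form of Fgfr2, was the member that ran the other way. Its level was 4.57, 4.24 and 4.38 in YFP-positive samples, detected on no array, and 4.82, 5.39 and 4.57 in adult samples, detected on replicate 2 alone. In eCSCs it was 10.38, 10.15 and 10.29, detected on all 3. Raw signals ran from 86.7 to 104.9 in YFP-positive samples, 95.3 to 111.2 in adult samples and 1518.8 to 2474 in eCSCs. No cardiomyocyte array came near the eCSC arrays. Fgf7 was at least 49.6-fold lower in YFP-positive samples than in eCSCs (log2 difference -5.87, SE 0.204, adjusted p = 3.34e-12). The adult samples stood 40.7-fold below eCSCs (-5.35, SE 0.204, adjusted p = 7.49e-12), a size that rests on signals at or near background in the adult cells. Between YFP-positive and adult samples the difference of -0.53 reached an adjusted p of 0.0433, but the groups overlapped. The call was lost in 16 of 21 alternatives, among them 6 fits with a single array left out. Without adult replicate 2 the difference was -0.30 at an adjusted p of 0.233. None of the 3 probes of Fgf10, which uses the same receptor form and drives branching of lung and growth of limb buds in the embryo, was detected on any array.

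Fgf9 and Fgf16 belong to the same ligand subfamily. Fgf9 is known from the developing heart, where the epicardium and endocardium supply it to the myocardium, and Fgf16 as a ligand made in the heart after birth. The Fgf9 level was 5.04, 5.07 and 5.05 in YFP-positive samples, 6.33, 6.08 and 5.44 in adult samples and 4.41, 4.36 and 4.36 in eCSCs, where it was not detected. On the normalized scale the 3 groups stood apart, with adult samples highest and most spread. Signals were near background, with raw values of 103.5 to 121.5 in YFP-positive samples, 105 to 144.3 in adult samples and 99.3 to 113.2 in eCSCs. Fgf9 was at least 1.25-fold higher in YFP-positive samples than in eCSCs (log2 difference 0.68, SE 0.204, adjusted p = 0.0078) and at least 2.32-fold higher in adult samples than in eCSCs (1.57, SE 0.204, adjusted p = 5.3e-06). YFP-positive samples were 1.86-fold below adult samples (-0.90, SE 0.204, adjusted p = 0.00235). That last call depended on the normalization: with each array scaled to its median the difference was -0.44 at an adjusted p of 0.241. The call against eCSCs was lost in 3 of 21 alternatives for YFP-positive samples, with differences down to 0.13, and in 1 of 21 for adult samples. The other Fgf9 probe gave differences of 0.68 for YFP-positive samples against eCSCs, 1.56 for adult samples against eCSCs and -0.88 for YFP-positive against adult samples, all called.

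Fgf16 was lower in YFP-positive samples, where its signal was near background, than in adult samples. Its level was 5.15, 4.55 and 4.85 in YFP-positive samples, with replicate 2 not detected, and 7.67, 7.66 and 7.11 in adult samples. In eCSCs it was 4.40, 4.21 and 4.27 and was not detected. The adult samples stood clear of all others, and the YFP-positive samples lay just above the eCSC range. YFP-positive samples were 6.18-fold lower than adult samples (log2 difference -2.63, SE 0.201, adjusted p = 1.53e-07), and adult samples were at least 6.70-fold higher than eCSCs (3.19, SE 0.201, adjusted p = 2e-09). The difference of 0.56 between YFP-positive samples and eCSCs (adjusted p = 0.021) was lost without YFP-positive replicate 1 (adjusted p = 0.101) or eCSC replicate 2 (adjusted p = 0.064). The Fgf16 gap between YFP-positive and adult samples stands beside a median log2 difference of -0.38 for the cardiomyocyte markers. Of these, 6 of 14 were called lower and 0 higher, beside 27.9% and 22.8% of all genes. The count of 6 fell to 1 without YFP-positive replicate 1, 2 without YFP-positive replicate 3, 3 without any single adult array and 1 without normalization. Without normalization 2683 of 10024 genes were called in this comparison, 82.1% of them higher.

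The intracellular factors Fgf12 and Fgf13 differed from each other in pattern. Fgf13, known in the mouse heart as the main cardiac sodium channel modulator of this branch, had a level of 8.79, 9.09 and 8.98 in YFP-positive samples and 9.91, 9.67 and 9.47 in adult samples. In eCSCs it was 4.32, 4.25 and 4.39 and was not detected. Both cardiomyocyte groups thus stood well apart from the stem cells, and did not overlap with each other. Fgf13 was at least 18.6-fold higher in YFP-positive samples than in eCSCs (log2 difference 4.63, SE 0.17, adjusted p = 5.87e-12) and at least 30.9-fold higher in adult samples than in eCSCs (5.36, SE 0.17, adjusted p = 9.75e-13). YFP-positive samples were 1.66-fold below adult samples (-0.73, SE 0.17, adjusted p = 0.00277), a call lost with median scaling at -0.58 and an adjusted p of 0.107. The second detected probe of Fgf13 gave differences of 1.52 for YFP-positive samples against eCSCs, 2.80 for adult samples against eCSCs and -1.28 for YFP-positive against adult samples, all called. The remaining probe was detected on no array.

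Fgf12, the factor of this branch that prevails in human heart, stayed near background. Its level was 4.90, 5.14 and 5.59 in YFP-positive samples, all detected, and 4.58, 4.29 and 4.38 in adult samples, none detected. In eCSCs it was 4.49, 4.81 and 4.70, with replicates 2 and 3 detected. YFP-positive samples were highest, and adult samples and eCSCs overlapped. Fgf12 was at least 1.29-fold higher in YFP-positive than in adult samples (log2 difference 0.79, SE 0.194, adjusted p = 0.00381). The difference of 0.54 from eCSCs (adjusted p = 0.0206) was lost without YFP-positive replicate 3 (adjusted p = 0.12) or eCSC replicate 1 (adjusted p = 0.0856). Adult samples against eCSCs gave -0.25, with a 95% interval of -0.66 to 0.17 (adjusted p = 0.259). Of its other probes, 1 was detected on no array and 1 on YFP-positive replicate 3 alone.

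Of 14 listed sodium channel subunits and partners of the intracellular factors, 8 had a probe and 2 were tested. Both passed the filter through groups that detected them on all 3 arrays, and neither was detected in eCSCs. Scn4b, the beta 4 subunit, had its groups in the same order as Fgf13. Scn4b had a mean level of 7.74 ± 0.512 in YFP-positive samples, 10.05 ± 0.492 in adult samples and 4.33 ± 0.0621 in eCSCs (SD, n = 3 each). It was at least 8.01-fold higher in YFP-positive samples than in eCSCs, at least 39.8-fold higher in adult samples than in eCSCs and 4.97-fold lower in YFP-positive than in adult samples (log2 difference -2.31, SE 0.263, adjusted p = 7.98e-06). Scn10a was close to background, with a difference of 0.52 between YFP-positive samples and eCSCs (adjusted p = 0.017) that was lost without eCSC replicate 2 (adjusted p = 0.0685) or YFP-positive replicate 2 (adjusted p = 0.0501), and neither other comparison was called.

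**Figure D2:**
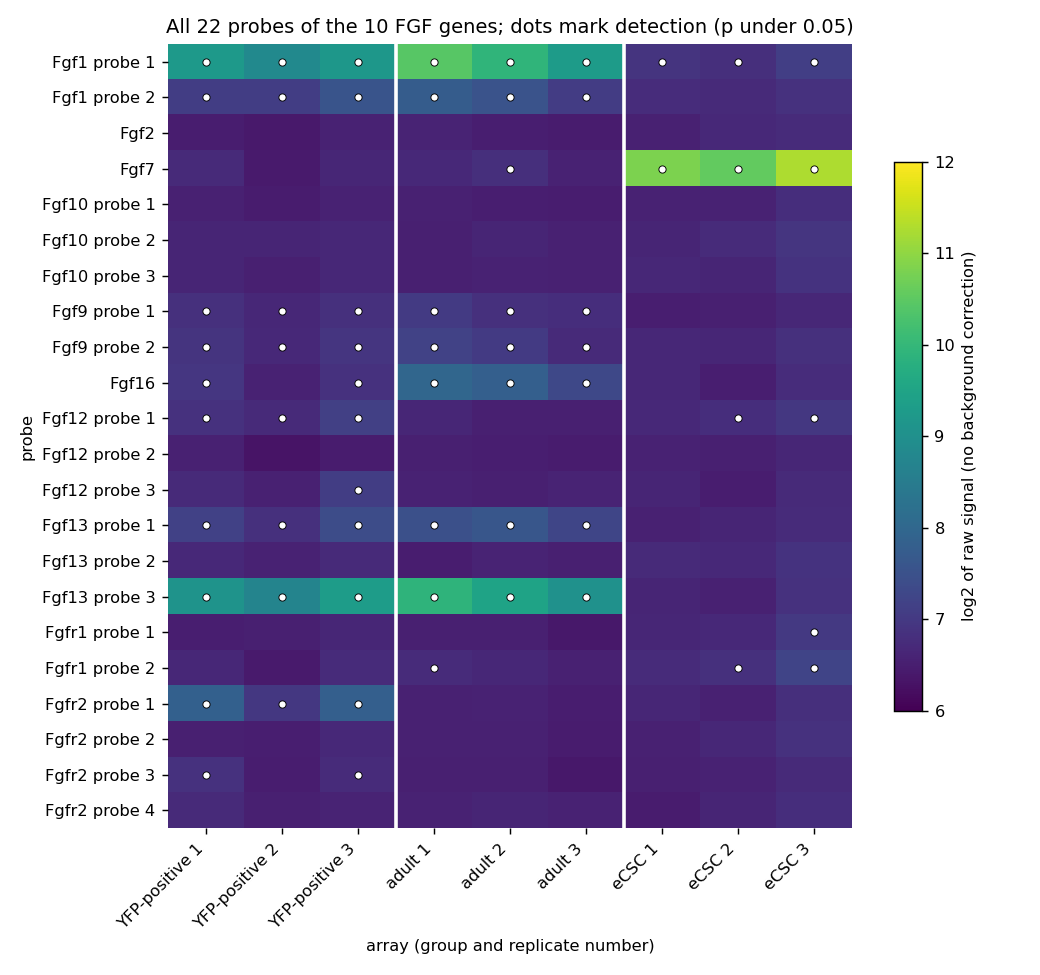
Raw signal on a log2 colour scale of all 22 probes of the 10 FGF genes on the 9 arrays, with groups in the order YFP-positive, adult and eCSC and a dot where a probe was detected. Of the 22 probes, 8 carry no dot, among them the only Fgf2 probe and all 3 Fgf10 probes.

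Of the receptors, Fgfr2 was detected in the YFP-positive samples alone. Fgfr2 is the receptor whose splice forms divide the ligands between epithelial and mesenchymal cells. Its level was 7.01, 6.09 and 6.91 in YFP-positive samples, with raw signals of 229.9, 125.7 and 226.3. It was 4.32, 4.40 and 4.28 in adult samples and 4.36, 4.24 and 4.32 in eCSCs, none of these detected. Every YFP-positive array stood above every other array, with replicate 2 the lowest of the 3. Fgfr2 was at least 3.82-fold higher in YFP-positive samples than in eCSCs (log2 difference 2.36, SE 0.216, adjusted p = 1.65e-07). It was at least 3.54-fold higher in YFP-positive than in adult samples (2.34, SE 0.216, adjusted p = 1.04e-06). Without YFP-positive replicate 2 these differences were 2.66 against eCSCs and 2.63 against adult samples. In the authors' deposited non-normalized gene-level signals both calls were lost, at 0.28 against eCSCs (adjusted p = 0.129) and 0.39 against adult samples (adjusted p = 0.0949). Of the 4 Fgfr2 probes, a second was detected on YFP-positive replicates 1 and 3, and the other 2 on no array.

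Some markers of other cell types moved with Fgfr2 over the YFP-positive arrays. Of 8 listed epicardial markers 6 passed the detection filter, and of 10 listed epithelial markers 4 passed. Lrrn4 and Tbx18 of the epicardial list did not, nor did Krt5, Cdh1, Epcam, Cldn4, Esrp1 and Ocln of the epithelial list. The summed signal of 6 epicardial markers was 2180, 579 and 1220 in YFP-positive replicates 1, 2 and 3, against 34.7 to 53.8 in adult samples, where none of the 6 was detected on all arrays, and 295 to 475 in eCSCs. The summed signal of 4 epithelial markers was 549, 213 and 420 in YFP-positive replicates 1, 2 and 3, against 43.2 to 59.1 in adult samples and 51.3 to 118 in eCSCs. Replicate 2, lowest of the YFP-positive arrays for Fgfr2, was also the lowest for these lists, for the fibroblast list and for the leukocyte list. It was also the array of this group with the fewest detected probes, 16802 against 19048 and 19002. Its median raw signal was 93.9, against 101.2 and 102.7, and the part of this in the low values was not tested. All 6 epicardial markers and 3 of the 4 epithelial ones were called higher in YFP-positive than in adult samples, beside 22.8% of all genes. Their median log2 differences were 2.67 and 1.89. The remaining epithelial marker, Cldn7, gave -0.39 (adjusted p = 0.123). In the authors' non-normalized gene-level signals 3 of 4 epicardial and 1 of 2 epithelial markers were called higher. There 1118 of 6589 genes were called in this comparison, 73.9% of them higher. The part of these markers in the Fgfr2 signal was not tested.

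**Figure D3:**
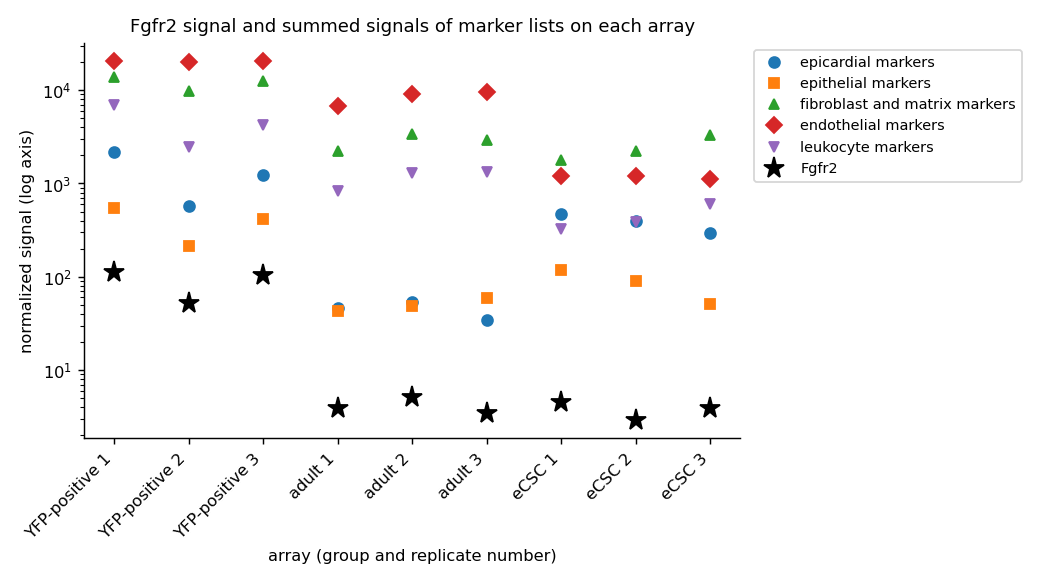
Normalized signal of Fgfr2 and summed normalized signal of marker lists on each array, less the added offset of 16, on a log axis, with YFP-positive arrays first, then adult and eCSC arrays. Epicardial and epithelial sums are lowest on YFP-positive replicate 2 among the YFP-positive arrays, as is Fgfr2.

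Fgfr1, the receptor usually named as the main FGF receptor of heart muscle, did not pass the detection filter. Of its 2 probes, that detected more often gave a signal on 2 eCSC arrays, 1 adult array and no YFP-positive array, with raw signals of 86.3 to 106.1 in YFP-positive samples, 93.5 to 106.3 in adult samples and 107.4 to 149.8 in eCSCs. The other probe was detected on 1 eCSC array. When dim probes were kept, the difference was -0.51 between YFP-positive samples and eCSCs (adjusted p = 0.0571) and -0.23 between adult samples and eCSCs (adjusted p = 0.418), so that no difference was detectable at these signals.

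Counted over the 7 tested genes, 6 were called higher and 1 lower in YFP-positive samples than in eCSCs, where 73.1% of all 10024 genes were called (34.4% higher and 38.7% lower). In adult samples 4 were called higher and 1 lower than in eCSCs, beside 75.2% of all genes (35.8% higher and 39.4% lower). In YFP-positive against adult samples 2 were called higher, Fgf12 and Fgfr2, and 5 lower, beside 50.7% of all genes (22.8% higher and 27.9% lower). Groups did not overlap for 7 genes in YFP-positive samples against eCSCs (76.1% of all genes), for 5 in adult samples against eCSCs (77.7%) and for 6 in YFP-positive against adult samples (58.8%). Median log2 differences of the 7 genes were 0.68, 1.57 and -0.73 in that order, beside -0.10, -0.05 and -0.08 over all genes. Of the 10 probes that passed the same filter, 9 were called higher and 1 lower in YFP-positive samples than in eCSCs (71.3% of 18180 probes called), 7 higher and 1 lower in adult samples than in eCSCs (74.3%), and 2 higher and 8 lower in YFP-positive than in adult samples (47.5%). Since 6 of the 7 genes passed the filter without being detected on all 9 arrays, these counts describe the genes and lend them no support. With most genes called in each comparison, sizes are needed beside the calls. The differences of Fgf1, Fgf7 and Fgf13 from eCSCs compare with a median absolute difference of 0.89 for YFP-positive and 1.02 for adult samples over all genes.

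**Figure D4:**
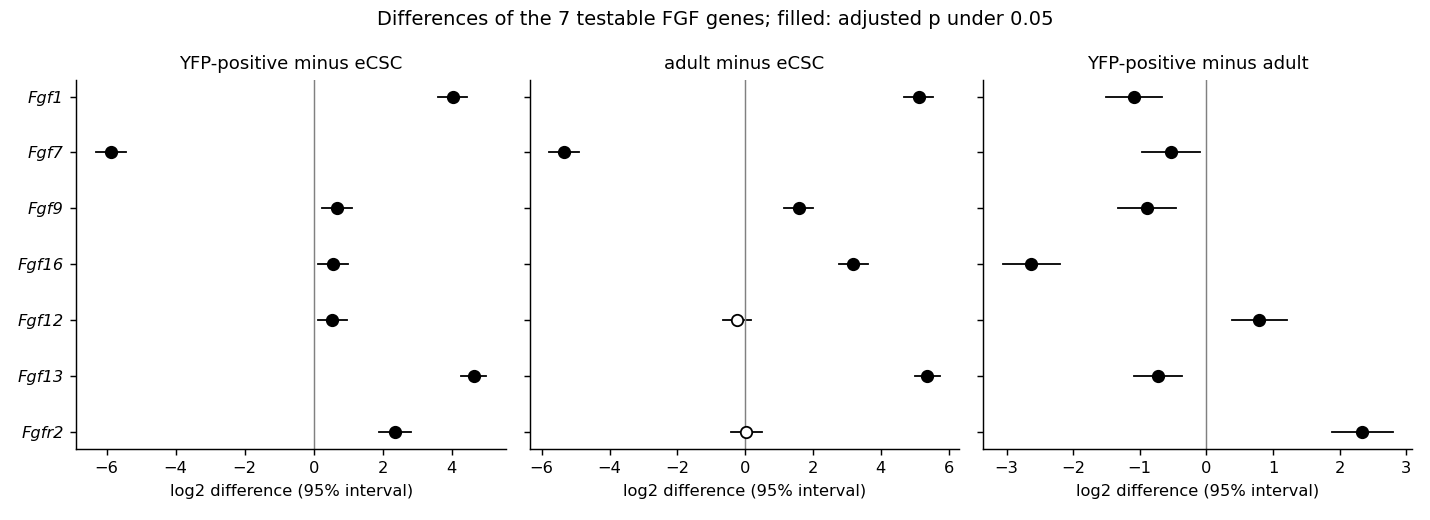
Log2 differences of the 7 tested FGF genes with 95% intervals, in panels for YFP-positive minus eCSC, adult minus eCSC and YFP-positive minus adult. Filled points have an adjusted p under 0.05, and positive values are higher in the group named before the word minus.

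Log2 sizes of these genes depended on how background was removed. Without background correction the differences from eCSCs shrank to 2.26 in YFP-positive and 3.22 in adult samples for Fgf1, to -3.55 in YFP-positive and -3.39 in adult samples for Fgf7, and to 2.42 in YFP-positive and 3.04 in adult samples for Fgf13. The Fgfr2 difference shrank to 0.87 against eCSCs and 0.85 against adult samples, and all of these calls stayed past the threshold. By the brightest probe, adult replicate 3 was the lowest adult array for Fgf1, Fgf9, Fgf13 and Fgf16. By the other detected probe the lowest adult array was replicate 3 for Fgf1 (6.63), replicate 2 for Fgf9 (5.53) and replicate 1 for Fgf13 (6.89).

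Other FGF family genes were mostly below detection. Of 17 further ligands and receptors on the arrays, 4 were tested. Fgfrl1, a receptor-like protein that lacks the kinase domain, had a mean level of 6.75 ± 0.167 in YFP-positive samples, 7.59 ± 0.215 in adult samples and 5.31 ± 0.253 in eCSCs (SD, n = 3 each). It was 2.71-fold higher in YFP-positive samples than in eCSCs (adjusted p = 6.63e-06) and 4.85-fold higher in adult samples than in eCSCs (adjusted p = 3.51e-08), and lower in YFP-positive than in adult samples by 0.84 on the log2 scale (adjusted p = 0.00192, but 0.261 with median scaling). Fgf21, an endocrine ligand best known from liver, was at 4.59 ± 0.194 in YFP-positive samples, 4.52 ± 0.219 in adult samples and 6.3 ± 0.891 in eCSCs. It was lower than in eCSCs in YFP-positive samples (log2 difference -1.70, adjusted p = 0.000245) and at least 2.73-fold lower in adult samples (adjusted p = 0.000144). Fgfr3 was detected on YFP-positive arrays alone, at 4.89 ± 0.145, which put it above eCSCs by at least 1.11-fold (adjusted p = 0.00194). Its difference of 0.41 from adult samples (adjusted p = 0.0388) was lost in most alternatives. Fgf15, the gut ligand that restrains bile acid synthesis, differed by -0.46 between YFP-positive samples and eCSCs (adjusted p = 0.0397), also lost in most alternatives.

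Co-receptors and carriers of FGFs had 8 of 13 genes tested. In YFP-positive samples 3 were called higher and 1 lower than in eCSCs, in adult samples 3 higher and 4 lower than in eCSCs, and in YFP-positive against adult samples 3 higher and 1 lower. With median scaling these counts were 1 higher and 2 lower, 2 higher and 5 lower, and 3 higher and 1 lower. Of all 10024 genes, 7129, 7342 and 3081 were called with that scaling, of which 34.8%, 29.4% and 73.1% were higher. Over all genes, without that scaling, 73.1%, 75.2% and 50.7% were called in the 3 comparisons, in the same order. Gpc3, a heparan sulphate proteoglycan anchored at the cell surface, had a mean level of 9.88 ± 0.576 in YFP-positive samples, 5.43 ± 0.205 in adult samples and 4.28 ± 0.0378 in eCSCs (SD, n = 3 each). It was 21.9-fold higher in YFP-positive than in adult samples (log2 difference 4.45, SE 0.238, adjusted p = 5.56e-09) and at least 35.4-fold higher than in eCSCs. The fibroblast and matrix markers moved with it, as 13 of 14 were called higher in YFP-positive than in adult samples, beside 22.8% of all genes. Their median was 2.67, and their part in the Gpc3 signal was not tested. Flrt2, a membrane protein that binds FGF receptors, was not detected in adult samples. It was at least 3.07-fold higher in YFP-positive samples than in adult samples (adjusted p = 3.97e-05), and adult samples were at least 3.42-fold lower than eCSCs (adjusted p = 4.28e-06). Gpc1 was higher than in eCSCs by 0.91 in YFP-positive and by 1.62 in adult samples, and lower in YFP-positive than in adult samples (-0.71, adjusted p = 0.0155). Its call in YFP-positive samples against eCSCs was lost with median scaling (adjusted p = 0.112), and that against adult samples without YFP-positive replicate 3 (adjusted p = 0.0841) or adult replicate 3 (adjusted p = 0.0748). Fgfbp1, a carrier that frees FGFs from the matrix, was lower than in eCSCs, where its mean level of 5.20 was itself near background. The log2 difference was -0.72 in YFP-positive samples, where 1 array detected it (adjusted p = 0.00589). In adult samples no array detected Fgfbp1, and it was at least 1.28-fold lower (adjusted p = 0.00494).

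Enzymes that build and edit heparan sulphate had 12 of 14 genes tested. In YFP-positive samples 8 were called higher and 3 lower than in eCSCs, with a median of 1.03, and in adult samples 5 were higher and 4 lower, with a median of 0.08. Over all genes 34.4% were called higher and 38.7% lower in YFP-positive samples, and 35.8% higher and 39.4% lower in adult samples. With median scaling the counts were 5 higher and 4 lower in YFP-positive samples and 3 higher and 6 lower in adult samples, where the median turned to -0.61. With that scaling the median over all genes was -0.49 in YFP-positive and -0.68 in adult samples against eCSCs. Of all 10024 genes, 7129 and 7342 were then called in these 2 comparisons, 34.8% and 29.4% of them higher. In YFP-positive against adult samples, without that scaling, 5 were called higher (3 in either of the authors' gene-level tables) and 1 lower, beside 22.8% and 27.9% of all genes. Of 6589 genes in those tables, 3210 (normalized) and 1118 (non-normalized) were called, 44.5% and 73.9% of them higher. The enzyme called lower was Extl3 (-0.61, adjusted p = 0.0125), which starts the chain and whose call was lost with median scaling (adjusted p = 0.0916). Hs3st1, a sulphotransferase that makes the antithrombin site, had a mean level of 8.09 ± 0.467 in YFP-positive samples, 5.76 ± 0.182 in adult samples and 4.42 ± 0.067 in eCSCs (SD, n = 3 each). It was 5.02-fold higher in YFP-positive than in adult samples (log2 difference 2.33, SE 0.213, adjusted p = 9.69e-07). Sulf1, an enzyme outside the cell that removes 6-O-sulphate and weakens FGF binding, was at 7.87 ± 0.391 in YFP-positive samples, 5.12 ± 0.506 in adult samples and 6.10 ± 0.185 in eCSCs. It was 6.70-fold higher in YFP-positive than in adult samples (2.74, SE 0.251, adjusted p = 9.5e-07). Its relative Sulf2 was higher than in eCSCs in both cardiomyocyte groups, by 2.18 in YFP-positive samples (adjusted p = 2.25e-07) and by 2.20 in adult samples (adjusted p = 1.5e-07). Glce, the epimerase of the chain, was lower than in eCSCs in both, with log2 differences of -2.45 in YFP-positive samples (adjusted p = 4.86e-08) and -2.52 in adult samples (adjusted p = 2.55e-08). Hs6st2, which adds 6-O-sulphate, was lower in YFP-positive samples than in eCSCs (log2 difference -1.63, adjusted p = 6.17e-06) and at least 4.15-fold lower in adult samples (adjusted p = 5.2e-08).

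Of 19 listed adaptors and kinases between FGF receptors and ERK, 13 had a probe and 6 were tested. In YFP-positive samples 1 was called higher and 1 lower than in eCSCs, in adult samples 1 higher and 2 lower, and in YFP-positive against adult samples 2 higher and 1 lower. Over all genes 73.1%, 75.2% and 50.7% were called in these comparisons, in the same order. Gab1, a docking protein that passes the signal to phosphatidylinositol kinase, was 16.6-fold higher in YFP-positive samples than in eCSCs (log2 difference 4.05, SE 0.175, adjusted p = 3.9e-11) and 17.1-fold higher in adult samples than in eCSCs (4.09, SE 0.175, adjusted p = 2.63e-11). Between YFP-positive and adult samples it differed by -0.04 (adjusted p = 0.864). Shc1, an adaptor of receptor tyrosine kinases, was 2.72-fold higher in YFP-positive than in adult samples (adjusted p = 2.4e-05), and adult samples were 3.28-fold lower than eCSCs (adjusted p = 7.46e-07). Nras, a small GTPase upstream of ERK, was lower than in eCSCs, with log2 differences of -0.95 in YFP-positive samples and -2.10 in adult samples (adjusted p = 0.000102 and 2.01e-08). With median scaling more of this list was lower than in eCSCs, 5 of 6 in YFP-positive samples and 4 of 6 in adult samples. The median over all genes was then -0.49 in YFP-positive and -0.68 in adult samples. Of all 10024 genes, 7129 and 7342 were called with that scaling, 34.8% and 29.4% of them higher.

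Feedback inhibitors and target genes of FGF and ERK signalling, which many other receptors also induce, had 14 of 18 listed genes tested. In YFP-positive samples 3 were called higher and 8 lower than in eCSCs, with a median of -0.60, and in adult samples 0 were higher and 11 lower, with a median of -1.20. Over all genes 34.4% were called higher and 38.7% lower in YFP-positive samples, and 35.8% higher and 39.4% lower in adult samples. In YFP-positive against adult samples 10 were called higher and 0 lower, with a median of 0.83, beside 22.8% and 27.9% of all genes. No alternative called any of them lower, but the number called higher fell to 9 without YFP-positive replicate 2 or with median scaling, to 7 without background correction, and to 3 of 13 in the authors' non-normalized gene-level signals. Of all 10024 genes, median scaling called 3081 in this comparison, 73.1% of them higher. Without background correction 4639 were called, 43.8% of them higher. In the non-normalized gene-level signals 1118 of 6589 genes were called, 73.9% of them higher. Dusp6, a phosphatase that switches off ERK, had a mean level of 10.94 ± 0.283 in YFP-positive samples, 7.95 ± 0.355 in adult samples and 9.33 ± 0.23 in eCSCs (SD, n = 3 each). It was higher in YFP-positive samples than in adult samples (log2 difference 2.98, SE 0.214, adjusted p = 7.75e-08) and than in eCSCs (1.61, SE 0.214, adjusted p = 8.88e-06), and lower in adult samples than in eCSCs (-1.38, SE 0.214, adjusted p = 3.38e-05). Egr1, an immediate early transcription factor, was at 12.66 ± 0.133 in YFP-positive samples, 8.42 ± 0.662 in adult samples and 8.12 ± 1.48 in eCSCs, where the arrays ran between 6.54 and 9.48. It was higher in YFP-positive than in adult samples by 4.23 (SE 0.518, adjusted p = 1.59e-05) and than in eCSCs by 4.53 (SE 0.518, adjusted p = 1.86e-06). Dusp5, a phosphatase of nuclear ERK, was higher in YFP-positive than in adult samples by 2.23 (SE 0.382, adjusted p = 0.000288), with YFP-positive arrays between 7.14 and 8.94. Its difference of 1.39 from eCSCs (adjusted p = 0.00448) was lost with median scaling (adjusted p = 0.119).

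Other genes of this list were highest in eCSCs. Etv4, an ETS transcription factor that FGF signals induce in embryos, was at 4.79 ± 0.161 in YFP-positive samples, 4.35 ± 0.0347 in adult samples and 8.21 ± 0.139 in eCSCs. It was lower in YFP-positive samples than in eCSCs (log2 difference -3.43, adjusted p = 1.03e-10) and at least 10.3-fold lower in adult samples (adjusted p = 2.04e-11). Spry3, of the Sprouty inhibitors, was detected in eCSCs alone, at least 5.77-fold lower in YFP-positive samples (adjusted p = 1.9e-08) and at least 5-fold lower in adult samples (adjusted p = 1.44e-08). Dusp4 stood between, at 6.41 ± 0.694 in YFP-positive samples, undetected in adult samples and at 9.15 ± 0.297 in eCSCs. It was at least 2.96-fold higher in YFP-positive than in adult samples (adjusted p = 9.61e-05) and lower in YFP-positive samples than in eCSCs (log2 difference -2.73, adjusted p = 5.96e-07). Ccnd1, the cyclin D1 gene, was lower than in eCSCs, with log2 differences of -1.69 in YFP-positive samples and -2.83 in adult samples (adjusted p = 8.69e-06 and 2.6e-08). Most endothelial and leukocyte markers moved with the genes that were higher in YFP-positive than in adult samples. Of these markers 12 of 14 and 10 of 14 were called higher, beside 22.8% of all genes. The endothelial marker Kdr was called lower, with means of 4.53 in YFP-positive and 5.28 in adult samples. Fabp4 and Erg of the endothelial list and Itgam of the leukocyte list did not pass the detection filter. The part of these markers was not tested.

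**Figure D5:**
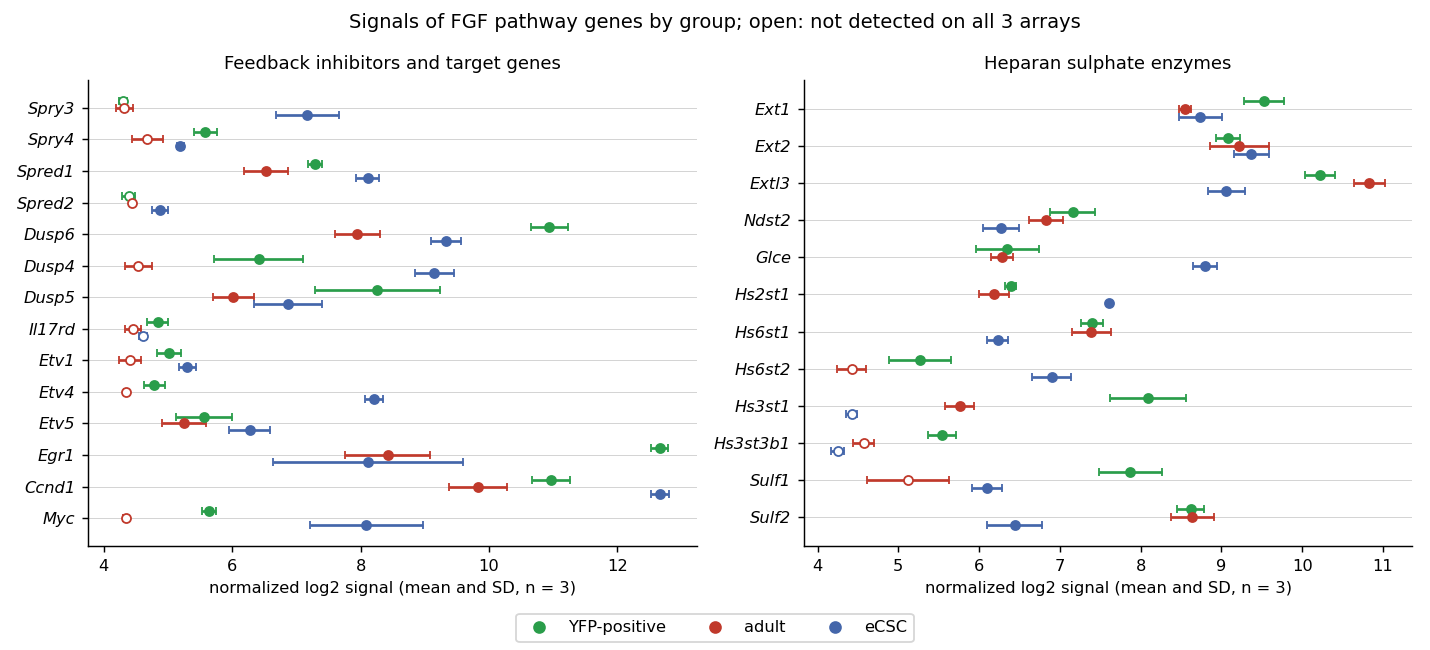
Mean normalized log2 signal and SD of 3 arrays for feedback inhibitors and target genes (left) and heparan sulphate enzymes (right), by group. Open points are groups that did not detect the probe on all 3 arrays. Dusp6 and Egr1 are highest in YFP-positive samples, while Spry3, Etv4 and Dusp4 are highest in eCSCs.

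The genes closest in pattern to each tested member were those with the smallest root mean square difference between mean-centred log2 profiles over the 9 arrays. They were sought among the genes tested, with clone, predicted and locus names left out. For Fgf1 these were Nudt7, at 0.116, and Sobp, at 0.151, both highest in adult samples. For Fgf13 they were Rbfox1, at 0.138, and Klhl41, at 0.141. The Fgf9 profile was closest to Idh1, at 0.132, and Cycs, at 0.145, which encode a cytosolic isocitrate dehydrogenase and cytochrome c. For Fgf16 the nearest were less close, Thrsp at 0.419 and Klhl40 at 0.447, with YFP-positive means above those of eCSCs in both. Fgf7 was nearest to Steap1, at 0.343, and Prkg2, at 0.468, both high in eCSCs alone. Fgf12 was nearest to Prkx, at 0.133, and Ppp1r12c, at 0.152. Fgfr2 was nearest to Ecrg4, at 0.12, and to Lyve1, the hyaluronan receptor of lymphatic vessels, at 0.147, with means of 6.55 for Ecrg4 and 6.51 for Lyve1 in YFP-positive samples, against 4.31 for Ecrg4 and 4.42 for Lyve1 in adult samples. These likenesses are descriptions over 9 arrays in 3 groups, so that any gene with the same order of groups can come close.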

How the data were processed

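The authors deposited probe intensities without normalization or background subtraction, per the file headers. The deposited column labelled detection p-value rises with the signal and holds a fraction, how many of 936 negative control beads were dimmer than the probe, so that 1 minus it was used as the detection p. The deposited series matrix is on a log2-like scale, and lumi 2.10.0 and R 2.15.3 are named in the submitters' processing notes, with methods not given in the sources used here. In the deposited normalized values at gene level, 5 columns followed another replicate and were used by group only; 18 columns of values were not used.

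Intensities were corrected by normexp with the detection p, raised by an offset of 16, then quantile normalized on the log2 scale (limma 3.58.1, R 4.3.3, version 1.17.8 of data.table). Of 45281 probes, those with 1 gene symbol were named, and 18180 were detected on all 3 arrays of a group, for 10024 genes, each by its brightest probe. A single lmFit and eBayes model over 9 arrays, with 1 mean per group, gave 3 contrasts, and was tested on simulated data. The number of arrays limits the precision. The genes, lists and tests were chosen with earlier results of these data known. All FGF genes are named, and from each list up to 4 genes of smallest adjusted p per contrast were eligible, with the 2 nearest profiles per gene. Alternatives covered background, scaling, filters, probes, tables, weights and left-out arrays. Figures used Python 3.11.15, matplotlib 3.10.9 and pandas 2.3.3.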

Additional observations from a re-analysis of the deposited data

How the results depend on the processing

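The 7 tested FGF genes were refitted under 22 alternatives, of which the restriction to probes detected on all 9 arrays left only Fgf1, and of 444 single values 394 kept their direction and side of the threshold, 45 lost the call and 5 turned sign. The turned values were all of adult samples against eCSCs and never called: Fgfr2 at -0.06 without normalization, -0.12 in the authors' non-normalized gene-level table and -0.01 to 0.05 with single arrays left out (-0.01 without eCSC or adult replicate 2), and Fgf12 at 0.02 in the authors' normalized gene-level table. The number of FGF genes called in YFP-positive samples against eCSCs was 7, and fell to 4 without background correction, 4 with an offset of 50 and 3 in the non-normalized gene-level table, where Fgf9, Fgf16, Fgf12 and Fgfr2 lost their calls. In YFP-positive against adult samples it was 7, and fell to 4 with median scaling, 4 without normalization and 1 in the non-normalized gene-level table. With probes detected on all 9 arrays, Fgf1 gave 1 call in each of the 3 comparisons. Leaving out single arrays gave 6 to 7 calls against eCSCs, 5 in adult samples against eCSCs and 6 to 7 against adult samples.

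Genes called numbered 7326 (YFP-positive against eCSC), 7543 (adult against eCSC) and 5079 (YFP-positive against adult). They numbered 4609, 4938 and 3367, in that order, with probes detected on all 9 arrays, 4584, 4694 and 3210 in the normalized gene-level table, and 3724, 4057 and 1118 in the non-normalized one, the tables holding 6589 genes. Between YFP-positive and adult samples, 3081 were called with median scaling and 2683 without normalization. The share of calls that were higher was 47.0%, 47.6% and 45%, against 34.8%, 29.4% and 73.1% with median scaling and 32.8%, 26.0% and 82.1% without normalization, where the median of all genes was -0.54, -0.80 and 0.24. The cause was not tested.

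Same-numbered replicates were not shown to be paired, with correlations of their deviations from -0.06 to 0.12, and 9 of 18 best matches in another group had the same number. With the replicate number as a block the FGF genes called were 7, 5 and 6, and genes called 7308, 7518 and 5048. The Fgf7 difference between YFP-positive and adult samples was -0.53 at an adjusted p of 0.0528 in that fit. Signals near background limit Fgf9, Fgf12, Fgf16 in YFP-positive samples and Fgfr1, where sizes depend on the background correction.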
